A study of Mus musculus with 2 samples.

Results

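The genes described are 9 that encode extracellular matrix proteins of the tectorial membrane and of other acellular structures of the inner ear: Otog, Otogl, Ceacam16, Tecta, Tectb, Epyc, Coch, Otos and Otoa. They were found by symbol among the 48709 mouse genes measured, and all 9 were in the gene list. The choice rested on their UMI counts in these same nuclei, above all in spindle and root cells and in nuclei that had no UMI of Slc26a4, so the levels below are a description and carry no test. A UMI is a unique molecular identifier, which marks 1 captured RNA molecule, and levels are given as CPM, the UMIs of a gene per 1000000 UMIs of all genes in the same nuclei.

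The tectorial membrane is a gel of collagen fibrils and noncollagenous glycoproteins that overlies the hair cells. Its α-tectorin (Tecta) and β-tectorin (Tectb) form a striated-sheet matrix to which CEACAM16 binds, and otogelin (Otog) and otogelin-like (Otogl) are related glycoproteins of this and the other acellular membranes of the inner ear. Otoancorin (Otoa) serves the attachment of the membrane to the nonsensory cells beneath it, and epiphycan (Epyc) is a small leucine-rich proteoglycan. Cochlin (Coch) and otospiralin (Otos) are secreted by fibrocytes of the spiral ligament. Most of these proteins are known from supporting cells, interdental cells and fibrocytes. Root cells line the outer sulcus and send processes into the spiral ligament, and spindle cells lie at the edge of the stria vascularis (SV). Both express the anion exchanger pendrin (Slc26a4), root cells with the Wnt pathway receptor Lgr5 and spindle cells with annexin A1 (Anxa1).

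Single-nucleus RNA-Seq was run on the SV of wild-type CBA/J mice at postnatal day 30, with both sexes pooled and the SV freed from the spiral ligament by microdissection. In the MethFix library nuclei were fixed in methanol after isolation, and in the RNAlater library whole tissue was held in RNAlater before nuclei were isolated. The labels give 5 to 6 pooled mice for MethFix and 10 for RNAlater, and each library stands for 1 pool with no replicate. The study's methods give a smaller pool for RNAlater than its label does, so the number of mice in that library is not settled. After filtering, 3372 MethFix nuclei with a median of 3498 UMIs and 2311 RNAlater nuclei with a median of 4702 UMIs remained.

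The libraries are not separate samples. They shared 3323 barcodes, which are 70.0% of those in MethFix and 85.9% of those in RNAlater, and 89.4% of the MethFix UMIs of these barcodes were counted again in RNAlater for the same gene and barcode. For Otog that was 153 of 160 UMIs and for Ceacam16 714 of 738. The squared difference between the counts of a shared barcode was 0.479 of that for separate samplings, below the sampling noise, so both libraries were taken as 1 sample and a value found in both is no replication. Of the nuclei kept, 965 in MethFix and 35 in RNAlater had a barcode of that library alone.

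Nuclei were clustered without the 9 genes and named from marker lists. Root nuclei numbered 72 in MethFix and 69 in RNAlater, and spindle nuclei 97 and 57. Since the marker lists hold Lgr5 for root and Anxa1 for spindle nuclei, their counts describe the naming and do not test it. Lgr5 had 159 and 192 UMIs in root nuclei and 0 in spindle nuclei of either library, and Anxa1 had 635 and 386 UMIs in spindle nuclei against 2 in root nuclei of each library. The Lgr5 UMIs were uneven: 150 of the 159 in MethFix lay in 1 root cluster of 34 nuclei and 9 in the second root cluster of 38, and in RNAlater all 192 lay in a cluster of 56 and 0 in a second of 13. A smaller cluster, of 14 nuclei in MethFix and 13 in RNAlater, was led by RP23-416J8.1, Dgkb and Gm14066, received no name, and is called the Dgkb nuclei. A class of fibrocytes was resolved in RNAlater alone, with a median of 1099 UMIs, and the nuclei named bone in MethFix carried Coch and the fibrocyte marker Slc4a11 among their leading genes.

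In GENCODE M21 on GRCm38, Otog lies on the plus strand at chr7:46240987-46311434, Otoa on the plus strand at chr7:121081650-121163097 and Ceacam16 on the minus strand at chr7:19852097-19861299. Otogl lies on the minus strand at chr10:107760531-107912134 and Epyc on the plus strand of the same chromosome at chr10:97644068-97682454. Coch lies at chr12:51593341-51605771 (plus), Otos at chr1:92644218-92648841 (minus), Tecta at chr9:42329619-42399929 (minus) and Tectb at chr19:55180733-55196313 (plus). Ceacam16, Tecta and Epyc each overlap an unnamed gene model of the opposite strand, and whether reads in introns were counted is not given in the sources used here. RefSeq start-site windows (GRCm38.p6, 250 bases before to 50 after the start) were matched for 7 of the 9 genes, all but Otogl and Ceacam16. Windows are shown for 3 genes found in root nuclei, each with its own pattern there, and for Coch, which was highest outside them.
Otog (chr7:46240737-46241036, plus): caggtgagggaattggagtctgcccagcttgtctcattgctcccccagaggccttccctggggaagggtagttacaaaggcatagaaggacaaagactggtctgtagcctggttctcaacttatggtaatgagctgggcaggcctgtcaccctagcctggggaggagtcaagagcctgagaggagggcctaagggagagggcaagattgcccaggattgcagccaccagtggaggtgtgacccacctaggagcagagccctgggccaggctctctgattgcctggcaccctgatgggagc
Otoa (chr7:121083174-121083473, plus): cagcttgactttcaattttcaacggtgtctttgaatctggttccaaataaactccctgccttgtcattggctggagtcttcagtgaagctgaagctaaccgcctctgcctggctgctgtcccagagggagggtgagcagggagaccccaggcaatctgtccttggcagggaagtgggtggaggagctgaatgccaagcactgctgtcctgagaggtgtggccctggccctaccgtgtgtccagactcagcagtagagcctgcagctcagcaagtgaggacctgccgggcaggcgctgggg
Epyc (chr10:97643818-97644117, plus): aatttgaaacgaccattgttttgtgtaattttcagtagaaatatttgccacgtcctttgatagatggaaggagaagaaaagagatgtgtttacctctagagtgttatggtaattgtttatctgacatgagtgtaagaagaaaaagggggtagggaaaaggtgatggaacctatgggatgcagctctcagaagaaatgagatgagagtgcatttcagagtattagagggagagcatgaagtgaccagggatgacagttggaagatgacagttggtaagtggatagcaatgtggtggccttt
Coch (chr12:51593091-51593390, plus): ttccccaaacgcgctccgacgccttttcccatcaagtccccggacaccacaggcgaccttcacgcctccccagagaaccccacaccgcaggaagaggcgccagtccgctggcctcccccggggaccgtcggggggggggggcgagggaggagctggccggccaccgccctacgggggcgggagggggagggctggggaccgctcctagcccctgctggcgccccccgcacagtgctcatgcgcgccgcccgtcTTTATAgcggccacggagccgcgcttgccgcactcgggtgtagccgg
The capitals in the Coch window mark a TATAAA match read on the opposite strand. TATAAA, searched on both strands, occurred in 13.6% of 32851 such windows and in no other window of the 7 genes. AGGTCA, a motif bound by nuclear receptors, occurred in 16.3% of all windows and in no window of the 7 genes. A match is a run of letters and not a measured binding site.

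The 9 genes fell into 3 groups by where their UMIs lay. Otog, Otogl and Ceacam16 lay mostly in root nuclei and the Dgkb nuclei and Epyc mostly in root nuclei, with 0 UMIs in the Dgkb nuclei, Otoa in part of the root nuclei and in Reissner's membrane, and Coch and Otos in bone, fibrocyte and basal nuclei. Marginal nuclei held another 18 and 41 Otos UMIs, 10.5% and 16.5% of those in kept nuclei. Tecta and Tectb were hardly detected. Together the root, spindle and Dgkb nuclei, 183 of the MethFix and 139 of the RNAlater nuclei, held 94.7% of the Otog UMIs of kept MethFix nuclei and 95.7% of those in RNAlater. They held 95.8% and 96.2% of the Otogl UMIs, 88.4% and 93.9% of the Ceacam16 UMIs, and 87.9% and 83.6% of the Epyc UMIs, but 47.8% and 42.4% of the Otoa UMIs.

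**Figure D1:**
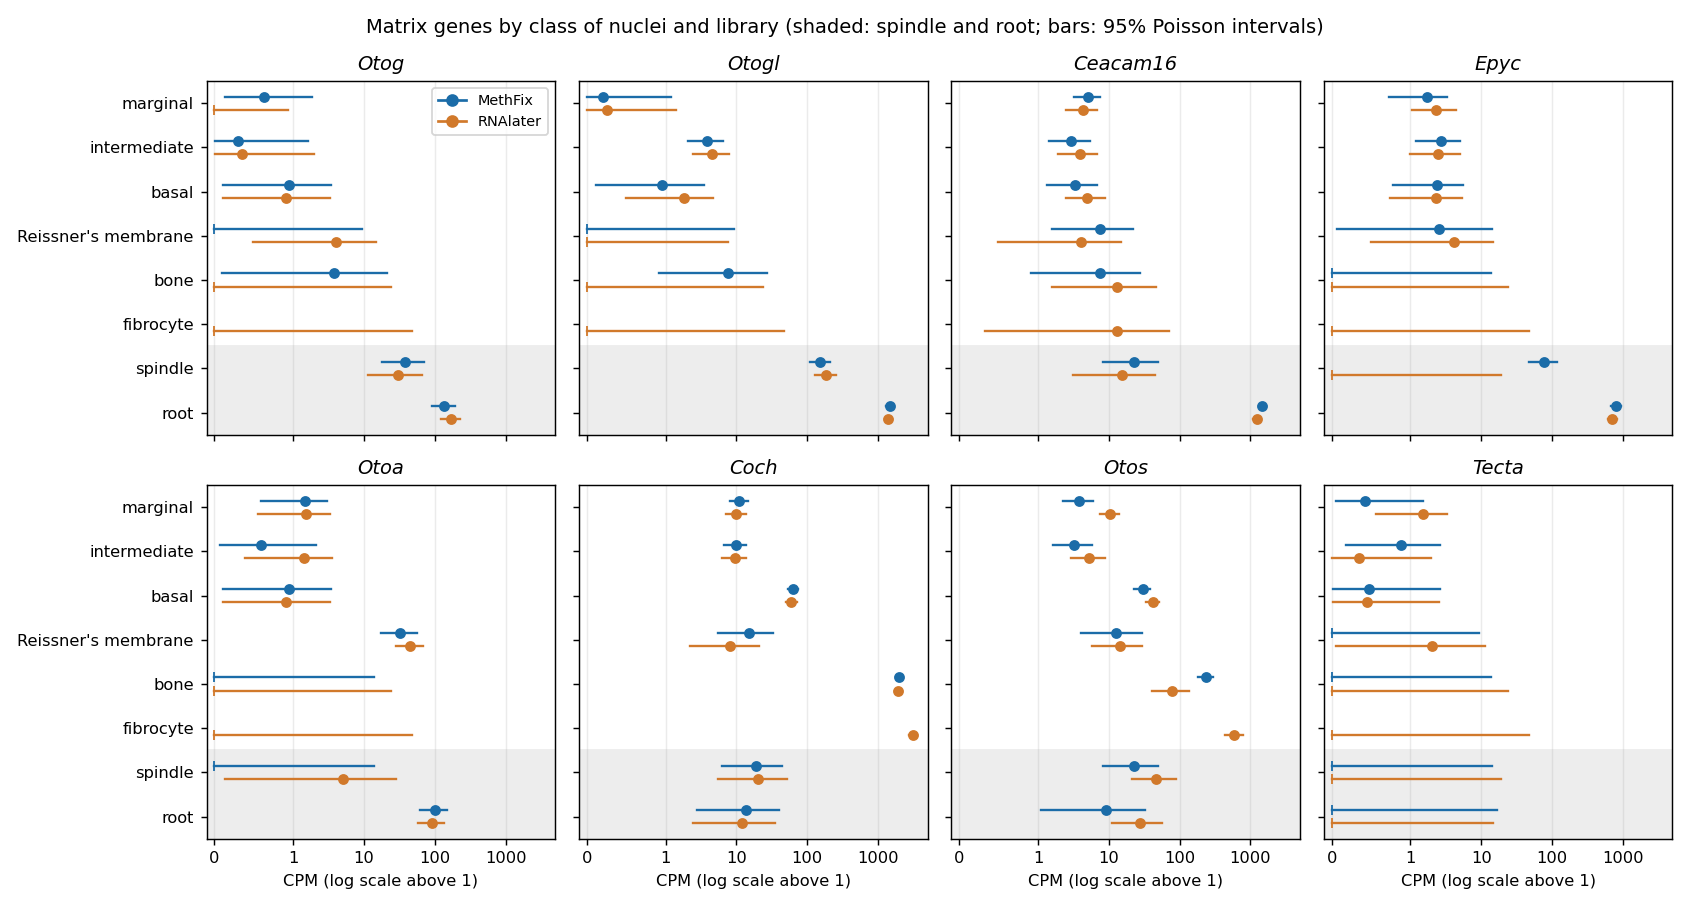
CPM (horizontal, logarithmic above 1) of 8 matrix genes in 8 classes of nuclei (vertical), with points for MethFix in blue and RNAlater in orange, ticks for classes at 0 and lines for exact 95% Poisson intervals. Otogl and Ceacam16 exceed 1000 CPM in root nuclei, Coch in bone and fibrocyte nuclei, and Otoa stands out in root nuclei and Reissner's membrane.

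Otogl reached 1454 CPM in root nuclei of MethFix (321 UMIs, 95% interval 1299 to 1622) and 1405 in RNAlater (354 UMIs, 1263 to 1560). In spindle nuclei it stood at 153 (40 UMIs) and 184 (36 UMIs). A UMI was found in 45.8% and 42.0% of root nuclei, at median depths of 2753 and 3402 UMIs, and in 13.4% and 14.0% of spindle nuclei. Marginal cells, the potassium-secreting epithelium of the SV, served as a class assumed to lack these genes. They were deeper, at medians of 4552 and 6090 UMIs, and held 1 Otogl UMI in each library. Thinned to 1000 UMIs per nucleus, the root shares were 40.9% and 38.5%. Outside the spindle, root and Dgkb nuclei, 12 of the 13 Otogl UMIs of intermediate nuclei lay in 1 nucleus in each library.

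Ceacam16 stood at 1472 CPM in root nuclei of MethFix (325 UMIs, 1317 to 1641) and 1223 in RNAlater (308 UMIs, 1090 to 1367). In spindle nuclei it had 6 and 3 UMIs, which gives 22.9 and 15.4 CPM. The share of root nuclei with a UMI was 45.8% and 49.3%, against 1.54% and 2.54% of marginal nuclei. The marginal levels were 5.07 and 4.31 CPM. The interval of the spindle level lay above the marginal level in MethFix, at 8.40 to 49.8, and held it in RNAlater, at 3.17 to 44.9, and a UMI was found in 6.19% and 5.26% of spindle nuclei. Free RNA in the droplets can give single UMIs to nuclei that do not express a gene, but it was not measured here. Shares at or below those of marginal nuclei are not read as expression. Spindle nuclei were shallower, at medians of 2453 and 3317 UMIs, so marginal shares are not matched to them in depth. Of the 325 MethFix UMIs in root nuclei, 88 came from 4 nuclei whose barcodes were in that library alone, and without them the level was 1111. An unnamed MethFix cluster of 84 nuclei (median 4717 UMIs) held 39 Ceacam16 UMIs, 5.1% of those in kept nuclei. That was more than the 6 in the 97 spindle nuclei.

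Epyc stood at 802 CPM in root nuclei of MethFix (177 UMIs, 688 to 929) and 711 in RNAlater (179 UMIs, 610 to 823). A UMI was found in 51.4% and 59.4% of root nuclei, and the share was 30.3% and 24.6% after thinning. In spindle nuclei it had 20 UMIs in MethFix, 19 of them in 1 nucleus, and 0 in RNAlater. Marginal nuclei held 1.69 and 2.28 CPM, with a UMI in 0.633% and 1.05% of them.

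Otog, the paralog of Otogl, had a root level of 136 CPM in MethFix (30 UMIs, 91.7 to 194) and 171 in RNAlater (43 UMIs, 124 to 230), from 15.3% and 18.8% of root nuclei. Spindle nuclei had 38.1 (10 UMIs) and 30.7 (6 UMIs) CPM. Marginal nuclei had 3 and 0 UMIs, the latter allowing up to 0.761 CPM at a floor of 3 counts. Most Otog UMIs lay outside both: the Dgkb nuclei alone held 64.1% of those in kept MethFix nuclei and 60.4% in RNAlater.

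Otoa had 99.7 CPM in root nuclei of MethFix (22 UMIs, 62.5 to 151) and 91.3 in RNAlater (23 UMIs, 57.9 to 137), with 0 and 1 UMI in spindle nuclei. Reissner's membrane, the epithelium between scala media and scala vestibuli, came next with 32.8 (13 UMIs in 12 nuclei) and 45.0 (22 UMIs in 16 nuclei). No nucleus there held more than 2 Otoa UMIs, and the share with one was 7.74% and 10.4%, against 0.633% and 0.749% of marginal nuclei. The intervals of the root and Reissner's membrane levels overlapped in RNAlater, where the latter reached 68.2. In MethFix 9 of the 22 root UMIs came from 2 of the 4 root nuclei with barcodes of that library alone. Without those 4 nuclei the root level was 60.9 (32.5 to 104), and its interval overlapped with that of Reissner's membrane, 17.5 to 56.1.

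Coch had its highest level outside the epithelia. In bone nuclei it stood at 1976 CPM in MethFix (525 UMIs, 1811 to 2153) and 1945 in RNAlater (300 UMIs, 1731 to 2178), and in the RNAlater fibrocytes at 3124 (243 UMIs, 2744 to 3543). A Coch UMI was found in 63.6% and 61.4% of bone nuclei and in 45.9% of fibrocytes, which rose to 84.2% of the 19 fibrocytes deep enough to be thinned. Among the named classes basal nuclei, the layer of the SV that faces the ligament, followed with 63.3 and 59.8 CPM. Marginal, intermediate and root nuclei lay between 9.48 and 13.6 with overlapping intervals. Unnamed clusters are outside this order. A MethFix cluster of 70 nuclei held 24 Coch UMIs and an RNAlater cluster of 83 held 35, at medians of 1316 and 1499 UMIs. Basal nuclei held 133 in 751 nuclei and 132 in 595. Shares of nuclei with a UMI in marginal nuclei were 3.62% and 5.24%.

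Otos followed Coch in part. It stood at 591 CPM in the RNAlater fibrocytes (46 UMIs, 433 to 789), at 233 in MethFix bone nuclei (62 UMIs, 179 to 299) and at 77.8 in RNAlater bone nuclei (12 UMIs, 40.2 to 136). The bone intervals of the libraries did not overlap. The bone class held 107 nuclei in MethFix, where no fibrocyte class was resolved, and 57 in RNAlater. Basal nuclei had 30.0 and 42.1 CPM, 25 of the 93 RNAlater UMIs lying in 1 nucleus. Another 16 Otos UMIs lay in the unnamed RNAlater cluster of 83 nuclei. In marginal nuclei Otos had 3.80 CPM in MethFix (2.25 to 6.01) and 10.4 in RNAlater (7.47 to 14.1).

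Tecta had 8 UMIs in all MethFix barcodes and 16 in RNAlater, of which 6 and 9 lay in kept nuclei and 0 in root and spindle nuclei. Its highest count in a class was 6 UMIs over 5 marginal nuclei in RNAlater. Tectb had 0 UMIs in MethFix and 1 in RNAlater. A count of 0 in 3372 nuclei allows a share of up to 0.0890% with a UMI, for counting error only. Neither tectorin was detectable at this depth in the nuclei that held the other tectorial membrane genes.

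The spindle and root classes were then pooled and set against the other named nuclei, 169 against 2982 in MethFix and 126 against 2033 in RNAlater. Named classes of fewer than 10 nuclei were left out, hair cells and pericytes in MethFix and hair cells and endothelial nuclei in RNAlater. A gene was called when its log2 ratio of CPM was at least 2 in the same direction in both libraries and the higher side had at least 20 UMIs in each. By that rule 3.46% of the 8450 genes with enough UMIs were called higher and 5.34% lower. Of the 9 genes, 6 had enough UMIs, 5 of them were called higher and 1 lower, but the genes were chosen with this contrast known and nothing is read from the counts. For Otogl the log2 ratio in MethFix was 8.82 (8.14 to 9.59), and 8.88 (8.20 to 9.65) was found with RNAlater. It was 7.34 and 7.26 for Ceacam16, 7.59 and 7.40 for Epyc, 7.01 and 7.73 for Otog, and 4.37 and 3.94 for Otoa. The unnamed clusters, the Dgkb nuclei among them, were on neither side of these ratios. The other named nuclei held 7 and 5 Otog UMIs and 46 and 44 of Ceacam16. The Dgkb nuclei alone held 84 Otog UMIs in each library and 349 and 403 of Ceacam16. Coch was lower, at -2.05 (-3.27 to -1.07) and -2.29 (-3.61 to -1.24), close to the limit, and its call was lost under 6 of the other settings. The second root cluster was not the same set in each library, as it held the Prss36 and Aox2 root nuclei described later in MethFix and the Aox2 root nuclei alone in RNAlater. Without it Otog and Otoa were not called: Otog stood at 5.36 and 7.06, with 10 UMIs left in MethFix, and Otoa at 1.84 and -0.57. With no limit on mitochondrial UMIs neither was called either, Otog standing at 5.26 and 7.50 and Otoa at 1.94 and 4.11. Under that setting the MethFix root class held 35 nuclei instead of 72. Otos had 0.18 and 0.70 with intervals that held 0. The median of the 6 genes was 7.34, beside -0.38 over all genes with enough UMIs.

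**Figure D2:**
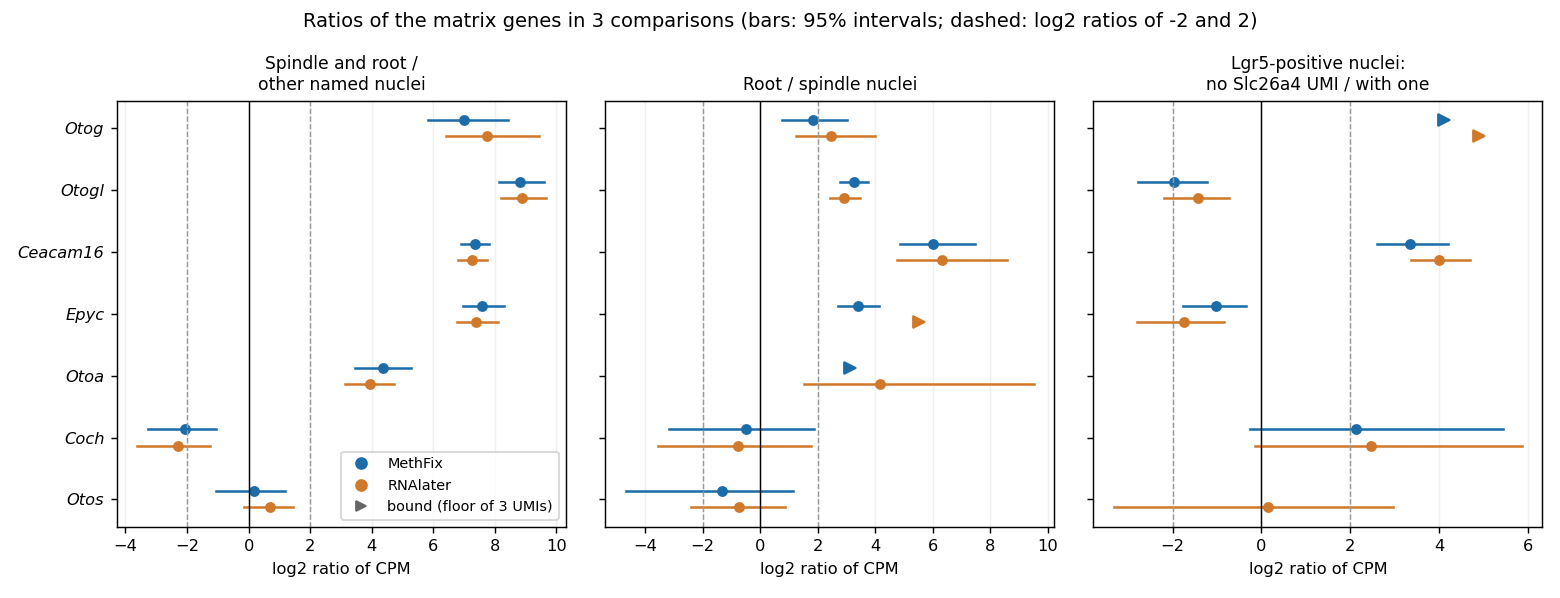
Log2 ratios of CPM (horizontal) of 7 matrix genes (vertical) in 3 comparisons of nuclei, with points and exact 95% intervals for MethFix in blue and RNAlater in orange, and triangles for bounds against a floor of 3 UMIs. Otog, Otogl, Ceacam16, Epyc and Otoa lie right of the dashed line at 2 in the left panel, Otog crosses it in the middle panel, and Otog and Ceacam16 part from Otogl and Epyc in the right panel.

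Within that pair, 4 of the 5 genes with enough UMIs were called higher in root than in spindle nuclei, and none was called lower. Over all 2606 genes with enough UMIs, 5.95% were called higher in root and 5.83% lower. Ceacam16 was higher in root nuclei by a log2 of 6.01 (4.87 to 7.46) in MethFix, while RNAlater gave 6.32 (4.75 to 8.60). Otogl was higher by 3.25 (2.78 to 3.77) and 2.93 (2.43 to 3.47). Epyc was higher by 3.39 in MethFix, where 1 nucleus held nearly all spindle UMIs, and by at least 5.53 in RNAlater. Otoa was higher by at least 3.12 and by 4.16. Otog had 1.83 (0.76 to 3.03) and 2.47 (1.24 to 4.00), past the limit in RNAlater alone. Without the second root cluster, and so without the Prss36 root nuclei in MethFix alone, the Otog ratio was at most -0.58 in MethFix, where the 34 remaining root nuclei had no Otog UMI, and 1.72 in RNAlater, and Otoa and Ceacam16 were no longer called. The median of the 5 genes was 3.64, beside 0.03 over all genes with enough UMIs. The genes were chosen with spindle and root levels known, so nothing is read from these counts or the median.

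The root class was not uniform. Nuclei that both libraries kept were grouped by the cluster pair they fell into, which gave 34 root nuclei led by Rspo2, Lgr5 and Slc26a4 (Lgr5 root), 20 led by Prss36 (Prss36 root), 13 led by Aox2 and shallower than the rest (Aox2 root, medians 1500 and 1811 UMIs), 13 Dgkb nuclei and 54 spindle nuclei. The root names of the Prss36 and Aox2 nuclei rest on the score of the marker list, since none of its markers was among the 10 leading genes of their MethFix cluster. Slc26a4 had 525 and 626 UMIs in the Lgr5 root nuclei and a UMI in each of the 34, 50 and 56 UMIs in Prss36 root, 17 and 24 in Aox2 root, 216 and 264 in spindle and 0 in the Dgkb nuclei of both libraries. Lgr5 was found in 25 and 29 of the 34 Lgr5 root nuclei, in 4 and 3 of the 20 Prss36 root nuclei and in 0 of the 13 Aox2 root nuclei of either library, so the Aox2 nuclei carry the name root without this marker. Of the 6 root markers 4 had UMIs in the Aox2 nuclei of MethFix, 64 UMIs in all.

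**Figure D3:**
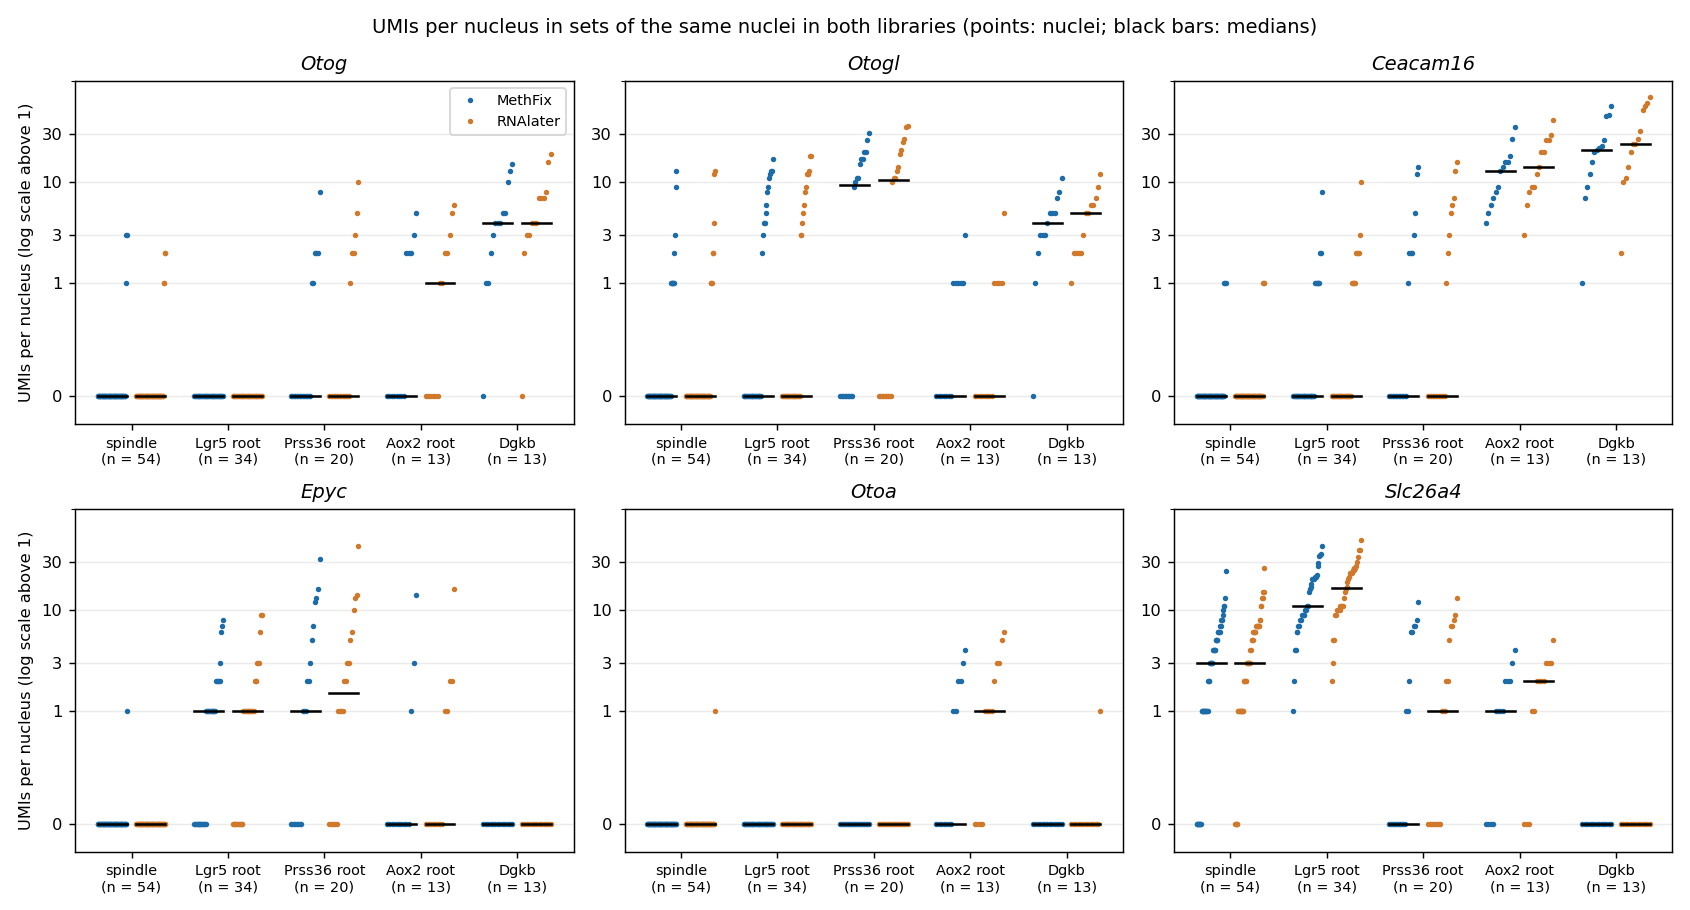
UMIs per nucleus (vertical, logarithmic above 1) of 5 matrix genes and Slc26a4 in 5 sets of nuclei kept in both libraries, each point 1 nucleus in MethFix (blue) or RNAlater (orange) and each black bar the median. Otog is at 0 in all 34 Lgr5 root nuclei, Otogl splits the Prss36 root nuclei into 9 at 0 and 11 at 9 UMIs or more, and every Aox2 root and Dgkb nucleus has Ceacam16.

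The Lgr5 root nuclei had Otogl and Epyc and no Otog. Otogl had 107 UMIs in MethFix, or 909 CPM, and 123 in RNAlater, or 864, in 13 of 34 nuclei in each library. The nuclei with Otogl had from 2 to 17 UMIs, with a median of 8, in MethFix and from 3 to 18, with a median of 9, in RNAlater, while the other 21 had none. Epyc was thinner and wider, with 45 and 52 UMIs in 20 and 22 nuclei and a median of 1 where detected. Of the 13 Otogl nuclei, 11 also had Epyc in each library. Ceacam16 had 18 and 26 UMIs in 9 and 11 nuclei, 8 and 10 of them in 1 nucleus, and Otog and Otoa had 0 in both libraries.

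The Prss36 root nuclei formed no cluster of their own. They fell with the Aox2 root nuclei in MethFix and with the Lgr5 root nuclei in RNAlater, and whether they are a mixture was not tested. Among the Prss36 root nuclei Otog and Otogl were both present and were never found in the same nucleus. Otogl had 187 UMIs in MethFix, or 2726 CPM (2349 to 3146), and 222 in RNAlater, or 2641 (2305 to 3012), which was its highest level. All of it lay in 11 nuclei, which had 9 to 31 UMIs with a median of 17 in MethFix, and in RNAlater 10 to 36 with a median of 19. Otog had 16 and 23 UMIs in 6 other nuclei, with 1 to 8 and 1 to 10 each, and the last 3 nuclei had neither gene.

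The partition went with Slc26a4. The 11 Otogl nuclei held 49 of the 50 Slc26a4 UMIs in MethFix and 53 of the 56 in RNAlater, found in 8 and 9 of them, and 1 and 2 Lgr5 UMIs. The 6 Otog nuclei held 1 Slc26a4 UMI in each library, and 6 and 8 Lgr5 UMIs. Epyc did not follow the partition, with 60 and 69 UMIs in 7 of the 11 Otogl nuclei and 23 and 18 in 4 of the 6 Otog nuclei. Ceacam16 had 41 and 53 UMIs over the 20 nuclei and was in 3 of the 11 and 2 of the 6. These are the same nuclei and largely the same molecules in both libraries.

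The Aox2 root nuclei were those with the most Ceacam16 for their depth, and they held Otoa. Ceacam16 had 178 UMIs in MethFix, or 9178 CPM (7879 to 10629), and 223 in RNAlater, or 9105 (7949 to 10382). Each of the 13 nuclei had it, with 4 to 35 UMIs (median 13) in MethFix and 3 to 41 (median 14) in RNAlater. Otoa had 13 UMIs in 6 nuclei and 23 in 9, or 670 and 939 CPM, and was at 0 in the Lgr5 and Prss36 root nuclei of both libraries. Otog had 14 and 20 UMIs in 5 and 7 nuclei, Otogl 8 and 9 in 6 and 5, and of the 18 and 22 Epyc UMIs 14 and 16 lay in 1 nucleus.

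The Dgkb nuclei had Otog, Otogl and Ceacam16 together and lacked Slc26a4, Anxa1 and Epyc. Otog had 67 UMIs in MethFix, or 1456 CPM (1128 to 1849), and 84 in RNAlater, or 1494 (1192 to 1850), against a median of 4 UMIs per nucleus in each and a highest of 15 and 19. This was above the Otog level of the Prss36 root nuclei, 233 (133 to 379) and 274 (173 to 411), and overlapped in both libraries with the interval of the Aox2 root nuclei, 722 (395 to 1211) and 817 (499 to 1261). Ceacam16 had 305 and 403 UMIs, or 6628 and 7169 CPM, in all 13 nuclei at medians of 21 and 24. Otogl had 57 and 62 UMIs, or 1239 and 1103 CPM, in 12 and 13 nuclei. Epyc had 0 UMIs in both libraries, where up to 65.2 and 53.4 CPM remained possible at a floor of 3 counts.

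The identity of the Dgkb nuclei was checked against the marker lists. Of the root list, 4 of 6 markers had UMIs, 66 in MethFix and 83 in RNAlater, led by Chst9 with 40 and 45 and Lgr5 with 14 and 18 in 4 nuclei, while Slc26a4 and Rspo2 had 0. Of the list for organ of Corti supporting cells, 4 of 7 markers had UMIs, 11 in each library, spread over Prox1, Fgfr3, Lfng and Hey2, while Sox2, Fabp7 and Ngfr had 0. The 6 hair cell markers and the 7 bone markers had 0. The marginal list had 35 and 46 UMIs over 5 and 7 of 8 markers, led by Slc12a2 with 14 and 19. These sums are raw, with no level from other classes beside them, so they do not rank the lists. By the marker score used for naming, root came first for the Dgkb cluster, at 2.94 in MethFix and 3.19 in RNAlater. Organ of Corti supporting cells came next in both libraries, so the marginal list scored lower than both. No class name was given to these nuclei.

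The spindle nuclei were mostly without matrix genes. Otogl had 33 and 36 UMIs in 10 and 8 of 54 nuclei, with up to 13 UMIs in 1 nucleus, and Otog had 7 and 6 UMIs in 3 and 4 nuclei. Ceacam16 had 3 single UMIs in each library, and Epyc 1 and 0. None of Otog, Otogl, Ceacam16, Epyc and Otoa was found in 39 nuclei in MethFix and 40 in RNAlater.

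**Figure D4:**
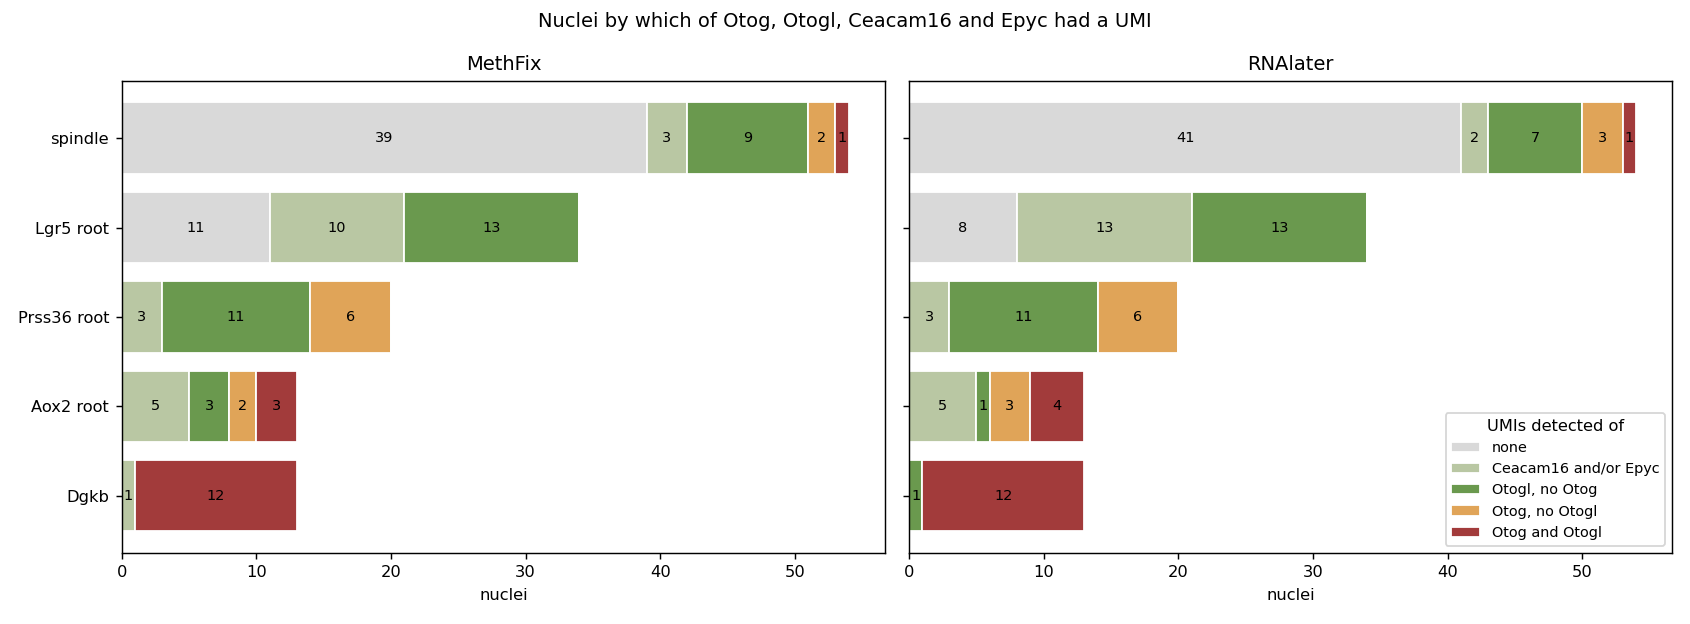
Nuclei (horizontal, number) of the 5 sets (vertical) by which of Otog, Otogl, Ceacam16 and Epyc had a UMI, for MethFix on the left and RNAlater on the right. Nuclei with both Otog and Otogl (dark red) are 12 of 13 in the Dgkb set, absent from the Lgr5 and Prss36 root sets and 1 of 54 in the spindle set.

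Otog, Otogl and Ceacam16 were found together in 12 of 13 Dgkb nuclei in each library, in 3 and 4 of 13 Aox2 root nuclei and in no Lgr5 root, Prss36 root or spindle nucleus. Over all 183 root, spindle and Dgkb nuclei of MethFix, 86 had none of Otog, Otogl, Ceacam16, Epyc and Otoa, 35 had 1, 36 had 2, 24 had 3, 1 had 4 and 1 had all 5. In the 139 of RNAlater the numbers were 51, 27, 35, 21, 4 and 1. Of the root, spindle and Dgkb nuclei with Otoa, 8 of 8 and 10 of 11 also had Ceacam16, which every Aox2 root nucleus had. In Reissner's membrane, where 12 and 16 nuclei had Otoa, Ceacam16 had 3 and 2 UMIs.

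Barcodes were next chosen by the 3 genes alone, with at least 1 UMI of Slc26a4, Lgr5 or Anxa1. There were 435 in MethFix (12.9% of nuclei) and 368 in RNAlater (15.9%), of which 148 and 113 were in the root or spindle class and 4 and 4 were Dgkb nuclei. Most of these barcodes were thus in other classes, and the rule left out 10 and 9 Dgkb nuclei that had none of the 3 genes. Otog was found in 15 and 18 of them. Ceacam16 was in 9 of the 15 Otog barcodes in MethFix (60.0%, exact interval 32.3% to 83.7%) and in 12 of the 18 in RNAlater (66.7%, 41.0% to 86.7%). Among barcodes without Otog it was in 8.10% and 8.57%. Those were mostly of other classes, so the shares with and without Otog are not matched for class. Among the Prss36 root nuclei, Ceacam16 was in 2 of the 6 with Otog and in 8 of all 20 in each library. Every Aox2 root and Dgkb nucleus had it.

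Splitting by Slc26a4 left 192 and 163 barcodes with it and 243 and 205 without. With Slc26a4, Ceacam16 was in 4 of 8 Otog barcodes in MethFix and 7 of 11 in RNAlater, and without it in 5 of 7 in each. Otogl was in 3 of 8 and 4 of 11 Otog barcodes with Slc26a4 and in 4 of 7 without it in each library. At these numbers no difference between barcodes with and without Slc26a4 was detectable. Otogl and Epyc were found together in 19 barcodes of each library, 43.2% and 47.5% of those with Otogl, and 18 and 19 of the 19 had Slc26a4. Otoa without Slc26a4 was in 0 and 1 barcodes of this pool. The pool requires 1 of the 3 genes, so these counts do not cover nuclei that lack all 3. Some Aox2 root nuclei had Otoa and no UMI of Slc26a4 or Lgr5, among them 1 with 2 Otoa UMIs in MethFix and 3 in RNAlater.

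Among Lgr5-positive nuclei, those without a Slc26a4 UMI (24 in MethFix, 16 in RNAlater) were compared with those that had one (27 and 31). Of the 4 matrix genes with enough UMIs, 2 were called higher without Slc26a4 and 0 lower, where 8.54% of the 925 genes with enough UMIs were called higher and 7.78% lower. Otog had 41 and 40 UMIs without Slc26a4 and 0 with it, a log2 ratio of at least 4.10 and 4.88. Ceacam16 was higher by 3.35 (2.59 to 4.20) and 3.99 (3.35 to 4.69). Otogl went the other way at -1.96 (-2.78 to -1.22) and -1.43 (-2.19 to -0.74), and Epyc at -1.03 (-1.76 to -0.34) and -1.75 (-2.81 to -0.84), neither past the limit. The median of the 4 genes was 1.14, beside -0.34 over all genes with enough UMIs, and it lies between genes of opposite sign. The genes were chosen in part for their UMIs in nuclei without Slc26a4, so nothing is read from these counts or the median.

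The higher Otog rested on few nuclei. Of the nuclei without Slc26a4, 4 in each library were Dgkb nuclei and held 30 of the 41 and 34 of the 40 Otog UMIs and 114 of 130 and 151 of 165 Ceacam16 UMIs. Another 4 and 2 were root nuclei with 11 and 6 Otog UMIs. The remaining 16 and 10 were marginal, intermediate, basal, bone or other nuclei and held 0 Otog UMIs. With the Dgkb nuclei left out, a setting chosen after the data were seen, neither gene was called: Otog stood at a bound of 2.55 and 2.74, with too few UMIs on the higher side, and Ceacam16 at 0.67 and 1.02. Of the nuclei with Slc26a4, 26 of 27 and 30 of 31 were root nuclei.

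Other matrix genes were set out by list. The 7 collagens of the tectorial membrane all had enough UMIs when the pooled spindle and root classes were set against the rest. Of these 7, 1 was called higher and 2 lower, beside 3.46% and 5.34% of all genes with enough UMIs. Col9a1, a chain of the fibril-associated type IX collagen, was higher by a log2 of 2.23 (1.57 to 2.84) and 2.28 (1.64 to 2.87), and in root over spindle nuclei by 3.25 and 2.28 on 24 and 25 UMIs. Col2a1, the main fibrillar chain, was lower at -2.03 (-5.08 to -0.15) and -3.14 (-8.45 to -0.64), on 2 and 1 UMIs of the pooled classes, and Col5a2 was lower by at least 2.39 in each library. The median of the 7 was -0.21, beside -0.38 over all genes with enough UMIs. In root over spindle nuclei 4 of the 7 had enough UMIs, with a median of 1.50 beside 0.03 over all genes. There Col9a3 was at 1.78 (0.64 to 3.06) and 1.27 (0.15 to 2.54) and Col11a2 at 1.17 (0.48 to 1.88) and 1.78 (0.99 to 2.67), both under the limit with intervals above 0.

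Of 10 other small leucine-rich proteoglycans, which share the protein family of Epyc, 2 had enough UMIs and 0 were called. Lum, which encodes the keratan sulfate proteoglycan lumican, missed the minimum with 15 and 9 UMIs in spindle and root nuclei, and its log2 ratio was 4.40 (3.28 to 5.51) and 3.80 (2.41 to 5.11). In root over spindle nuclei Lum was at 2.25 (0.36 to 4.71) on 12 against 3 UMIs and at least 1.22 on 9 against 0. Of 4 otoconial matrix genes, Sparcl1 alone had enough UMIs and was lower at -2.18 in each library. Of 6 matrix genes with the von Willebrand factor A domain found in Coch, 3 had enough UMIs and 0 were called. In root over spindle nuclei Col9a1 was the only gene called of the 27 in the 4 lists, of which 5 had enough UMIs. Over all genes with enough UMIs, 5.95% were called higher there and 5.83% lower.

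The genes most like each matrix gene across 8 classes of each library were ranked by the lower of the libraries' Pearson correlations of log2(CPM + 10), among 11470 genes. Wscd2 came first for Otog (r = 0.993) and Otogl (0.991), followed for both by Isl1, a LIM homeodomain transcription factor (0.949 and 0.969). Aox2, an aldehyde oxidase, came first for Ceacam16 (0.982) and the second was Nat8l, which makes N-acetylaspartate (0.975). The same pair in the other order came out for Epyc (0.932 and 0.920). Coch was nearest to Anks1b (0.983) and the sodium-calcium exchanger Slc8a3 (0.982), and Otos to Ucma, a secreted protein of cartilage (0.958), and Gm525 (0.955). Otog, Otogl, Ceacam16 and Epyc were highest in the root class, so their r can rest largely on that class. A high r does not place genes in the same nuclei: Otog and Otogl, both nearest to Wscd2, shared no Prss36 root nucleus. The 8 classes, of at least 10 nuclei each, were not the same in both libraries. Endothelial nuclei entered in MethFix alone and fibrocytes in RNAlater alone. The 8 points share their libraries, nuclei and depth differences. They are named classes alone, so the unnamed Dgkb nuclei did not enter the ranking. Those nuclei held 64.1% and 60.4% of the Otog UMIs and 45.4% and 53.0% of the Ceacam16 UMIs of kept nuclei.

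Barcodes left out by the filters held some of the same RNA. Those over 8000 UMIs, 401 in MethFix and 373 in RNAlater, held 37 and 58 Otog UMIs, 42 and 94 of Otogl, 195 and 185 of Ceacam16 and 146 and 178 of Epyc, of which 87 and 94 lay in 1 barcode. They may hold more than 1 nucleus and entered no comparison.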

How the data were processed

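The authors deposited raw counts of UMIs per gene and barcode for each library, made with Cell Ranger 3.0.1 against GRCm38, as the matrix header and the submitters' processing notes give; Scanpy 1.4.5 is named there for later steps. The deposited matrices held 4748 barcodes and 21027671 UMIs (MethFix) and 3868 barcodes and 17681824 UMIs (RNAlater). The gene list also held 15 added transgenes and 92 spike-ins, among 48816 entries.

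Genes found in fewer than 3 nuclei were dropped, as were nuclei with fewer than 200 genes, more than 8000 UMIs or more than 10% mitochondrial counts. Scrublet (expected rate 0.1) removed 224 MethFix nuclei (6.23%, threshold 0.310) and 18 RNAlater nuclei (0.773%, threshold 0.354). Clustering used scanpy 1.11.5 and leidenalg 0.10.2 on 4000 variable genes without the 9 matrix genes, 30 principal components and 10 neighbours. The resolution was 1 in MethFix and 1.5 in RNAlater. A cluster took the class of its highest marker score if that was at least 1, at least 0.7 of the best for the class and 0.5 above the next, with 3 detected markers. This rule was set after the clusters were seen, and the MethFix bone cluster passed it by a margin of 0.504 over fibrocytes (scores 5.01 and 4.50). The second MethFix root cluster also passed narrowly, at a root score of 4.55 where the best was 6.43.

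UMIs were summed per class. Levels have exact 95% Poisson intervals, shares exact Clopper-Pearson intervals and ratios exact conditional intervals. All of them, and the floor of 3 counts, cover counting error only. With 1 sample there is no test. Ratios against 0 are bounds at the floor, set per library. Nuclei were also thinned to 1000 UMIs, shallower ones being left out. The genes named are the 9 matrix genes, Slc26a4, Lgr5 and Anxa1, the 2 genes most like each matrix gene with at least 50 UMIs per library, called genes of the 4 matrix lists, and markers beside a result. Members and lists were chosen with earlier results of these data known. Scripts were tested on simulated data. edgeR 4.0.16 and DESeq2 1.42.0 (R 4.3.3) gave scaling factors alone, and the rest was computed with scipy 1.17.1 and numpy 2.4.6 in Python 3.11.15. Annotation was GENCODE M21, and 12 planned and 3 added settings were tried.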

Additional observations from a re-analysis of the deposited data

How the results depend on the processing

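Of the log2 ratios of the matrix genes recomputed under 12 planned and 3 added settings, 205 of 264 moved by less than their interval, 57 moved by more and 2 called values turned. The 3 added settings were chosen after seeing the data. TMM scaling, DESeq2 size factors and the other clustering resolutions kept every count of called matrix genes. In the comparison of pooled spindle and root nuclei, 3 genes instead of 5 were called higher with no mitochondrial limit and also without the second root cluster, Otog and Otoa being lost in both. The 1 gene called lower, Coch, became 0 with nuclei taken by UMIs of Slc26a4, Lgr5 or Anxa1, with no upper limit on UMIs, with no mitochondrial limit, with doublets kept, with the matrix genes among the clustering genes and without the second root cluster. In root against spindle nuclei, 2 genes instead of 4 were called with nuclei taken by marker UMIs (Otog and Epyc), with no mitochondrial limit and without the second root cluster (Otogl and Epyc in both). The MethFix root class held 35 nuclei with no mitochondrial limit and 34 without the second root cluster, instead of 72. With no upper limit on UMIs, at a log2 ratio of at least 1 and with the Dgkb nuclei counted as root, 5 were called, Otog being added. Otoa turned to -0.57 in RNAlater in the first comparison without the second root cluster, and to -0.60 in RNAlater in the second with nuclei taken by marker UMIs. Among Lgr5-positive nuclei, 1 gene instead of 2 was called higher with no upper limit on UMIs and 0 without the Dgkb nuclei. Without a filter on UMIs Coch was called higher as well. At a log2 ratio of at least 1, 2 were called lower instead of 0, and without the Dgkb nuclei 1, Otogl, was lower. The share of Otog barcodes with Ceacam16 was 0% in MethFix barcodes outside RNAlater, against 60.0%, and 87.5% in thinned RNAlater nuclei, against 66.7%. The 0% rests on very few barcodes, as Otog was in 0 of 4 root and 1 of 38 spindle nuclei with barcodes of MethFix alone. The cause was not tested where the setting does not itself remove nuclei.

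Over all genes, the counts called moved by more than 1.5 times in several settings. Against 292 higher and 451 lower in spindle and root nuclei, there were 673 higher without a filter on UMIs, 566 and 1418 at a log2 ratio of at least 1, and 119 and 16 with nuclei taken by marker UMIs. Against 155 and 152 in root over spindle nuclei, there were 247 and 301 without the filter, 354 and 319 at the lower limit, and 81 and 82 higher with no mitochondrial limit and without the second root cluster. Against 79 and 72 among Lgr5-positive nuclei, there were 292 and 109 without the filter, 125 and 176 at the lower limit, 410 and 32 with no upper limit on UMIs, and 38 higher without the Dgkb nuclei. The comparisons without shared barcodes, and that with at least 2 UMIs of Lgr5, were not run, for lack of nuclei. No paired analysis was possible because each library stands alone in its group and no result comes from a test. Depth limits Tecta, Tectb and all values under about 3 UMIs.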
